A study of Homo sapiens with 18 samples.

Results

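The nuclear-encoded subunits of the respiratory chain were followed in 3 human acute myeloid leukaemia cell lines treated with RMC-4550, an allosteric inhibitor of the tyrosine phosphatase SHP2, an enzyme that couples activated growth factor receptors to RAS signalling. Members were the genes with a subunit symbol of complex I (NDUFA, NDUFB, NDUFC, NDUFS, NDUFV), complex II (SDHA to SDHD), complex III (UQCR), complex IV (COX4 to COX8 followed by A, B or C) or complex V (ATP5) and a mean of at least 1 CPM over the 18 libraries, with assembly factors and pseudogenes left out. Levels are in CPM, reads scaled to a library of 1000000. This gave 79 genes of the 40184 in the table, of which 36 belong to complex I, 4 to complex II, 9 to complex III, 11 to complex IV and 18 to complex V. NDUFA4 was placed in complex IV, where the protein is now known to sit, and its paralogue NDUFA4L2 in no complex. A further 6 subunits stayed under 1 CPM on the mean, namely ATP5MGL, COX6A2, COX6B2, COX7A1, COX7B2 and COX8C. COX4I1, NDUFAB1, CYC1 and CYCS fall outside the symbol rule and are described apart.

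Molm-14 and MV4-11 carry FLT3-ITD, an internal tandem duplication of the receptor kinase FLT3, and SKNO-1 carries KIT N822K, per the labels. Each line was given DMSO, the vehicle, or 500 nM RMC-4550 for 24 h, with 3 cultures per group, 6 groups and 18 cultures in all. All lines grew in the same serum-containing medium, and SKNO-1 alone also received 10 ng/mL GM-CSF in both groups, so that line and growth factor cannot be told apart. Each line derives from a single patient, and the labels call the replicates biological without saying how the cultures were separated, so p-values measure the spread between these cultures.

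The respiratory chain sits in the inner mitochondrial membrane. Complexes I and II pass electrons to coenzyme Q, complex III passes them on to cytochrome c and complex IV to oxygen, and complex V, the ATP synthase, uses the proton gradient to make ATP. Most subunits are encoded in the nucleus and imported, a few are encoded by mitochondrial DNA (mtDNA), and leukaemic blasts are known to draw on oxidative phosphorylation. NRF1 and GABPA, the DNA-binding part of NRF2, are classical activators of these nuclear genes.

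Promoter sequence of 5 members is shown because these genes are lower in all lines (NDUFS6, NDUFS8, NDUFB6) or carry the classical NRF1 motif with no call in any line over all libraries (SDHD, ATP5F1C). Each line gives 120 bases before and up to the annotated start, 5′ to 3′ along the gene, from RefSeq on GRCh38.p14. Capitals mark an exact match, on either strand, to the palindromic NRF1 motif of 10 letters (the capitals of the ATP5F1C line), the GABPA motif CCGGAAGT or the SP1 motif GGGGCGGGG.
NDUFS6, chr5:1801287-1801406, plus strand: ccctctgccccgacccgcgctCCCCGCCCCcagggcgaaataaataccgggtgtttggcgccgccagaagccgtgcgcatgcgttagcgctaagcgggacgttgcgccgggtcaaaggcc
NDUFS8, chr11:68030561-68030680, plus strand: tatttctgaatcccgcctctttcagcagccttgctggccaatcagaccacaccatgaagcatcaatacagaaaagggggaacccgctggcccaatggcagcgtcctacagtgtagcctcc
NDUFB6, chr9:32573160-32573279, minus strand: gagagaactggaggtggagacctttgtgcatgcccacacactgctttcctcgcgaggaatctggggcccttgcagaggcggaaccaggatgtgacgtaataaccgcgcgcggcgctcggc
SDHD, chr11:112086753-112086872, plus strand: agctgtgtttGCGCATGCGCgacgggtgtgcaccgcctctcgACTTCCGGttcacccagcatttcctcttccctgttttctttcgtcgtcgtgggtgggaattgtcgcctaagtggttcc
ATP5F1C, chr10:7788057-7788176, plus strand: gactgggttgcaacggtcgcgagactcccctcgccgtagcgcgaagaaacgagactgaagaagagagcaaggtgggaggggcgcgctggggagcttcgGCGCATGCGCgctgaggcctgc
A 300-base promoter, from 250 bases before to 50 after the start, was found for 66 of the 79 members. The NRF1 motif was in 4 of the 66 (6.06%) against 1.75% of 15842 promoters of protein-coding genes, and the GABPA motif in 10 (15.2%) against 6.19%. The YY1 motif AAGATGGC was in 11 (16.7%) against 3.91%, and the SP1 motif in 10 (15.2%) against 22.4%. These are exact matches of fixed letters on both strands, no motif contains another, and none is evidence of binding. Of the 9 members lower in all lines described next, NDUFS6 and NDUFV2 held the SP1 motif and NDUFA6 the YY1 motif in this window. NDUFS8, NDUFB6, NDUFB3 and COX7A2 held none of the letters searched.

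Library totals ran from 17434810 to 19959917 reads. In 14 libraries 5.07% to 7.02% of reads came from mtDNA genes. The other 4 stood apart, at 15.0% in Molm-14 RMC-4550 replicate 2, 12.7% and 14.6% in MV4-11 DMSO replicates 1 and 3, and 10.5% in MV4-11 RMC-4550 replicate 1. The counts of members and most of the changes named for Molm-14 and MV4-11 are therefore also given over the 14 libraries under 10%, which leaves 1 DMSO library against 2 treated ones in MV4-11, where the lone library is assumed to vary like the others. Myeloid markers (PTPRC, SPI1, CD33, MPO, ANPEP, CSF3R, CEBPA) summed to 1154 to 1184 CPM with DMSO and 1492 to 1671 CPM with RMC-4550 in Molm-14, to 1124 to 1283 and 1211 to 1325 CPM in MV4-11, and to 1322 to 1360 and 1479 to 1643 CPM in SKNO-1. The treated sums of Molm-14 and SKNO-1 thus lay above the DMSO ones, with CSF3R higher in both (0.97 and 0.51, log2) and MPO lower in Molm-14 (−1.36, and −0.84 over the 14). The sum of stromal and epithelial markers (COL1A1, COL1A2, EPCAM, KRT8, KRT18) ran from 22.1 to 31.7 CPM with DMSO and from 29.4 to 49.8 CPM with RMC-4550 in Molm-14, from 28.3 to 40.3 and 33.5 to 45.0 CPM in MV4-11, and from 37.3 to 41.0 and 49.7 to 52.8 CPM in SKNO-1. Of that list KRT8 rose in Molm-14 and SKNO-1 and KRT18 in Molm-14, and the other genes tested passed in no line. Erythroid markers summed to at most 4.31 CPM and lymphoid markers to at most 17.8 CPM. The part of these marker changes in the results was not tested. RUNX1T1, the partner gene of the t(8;21) fusion of SKNO-1, was at 10.9 to 14.4 CPM in SKNO-1 and at most 0.0507 CPM in the other lines.

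**Figure D1:**
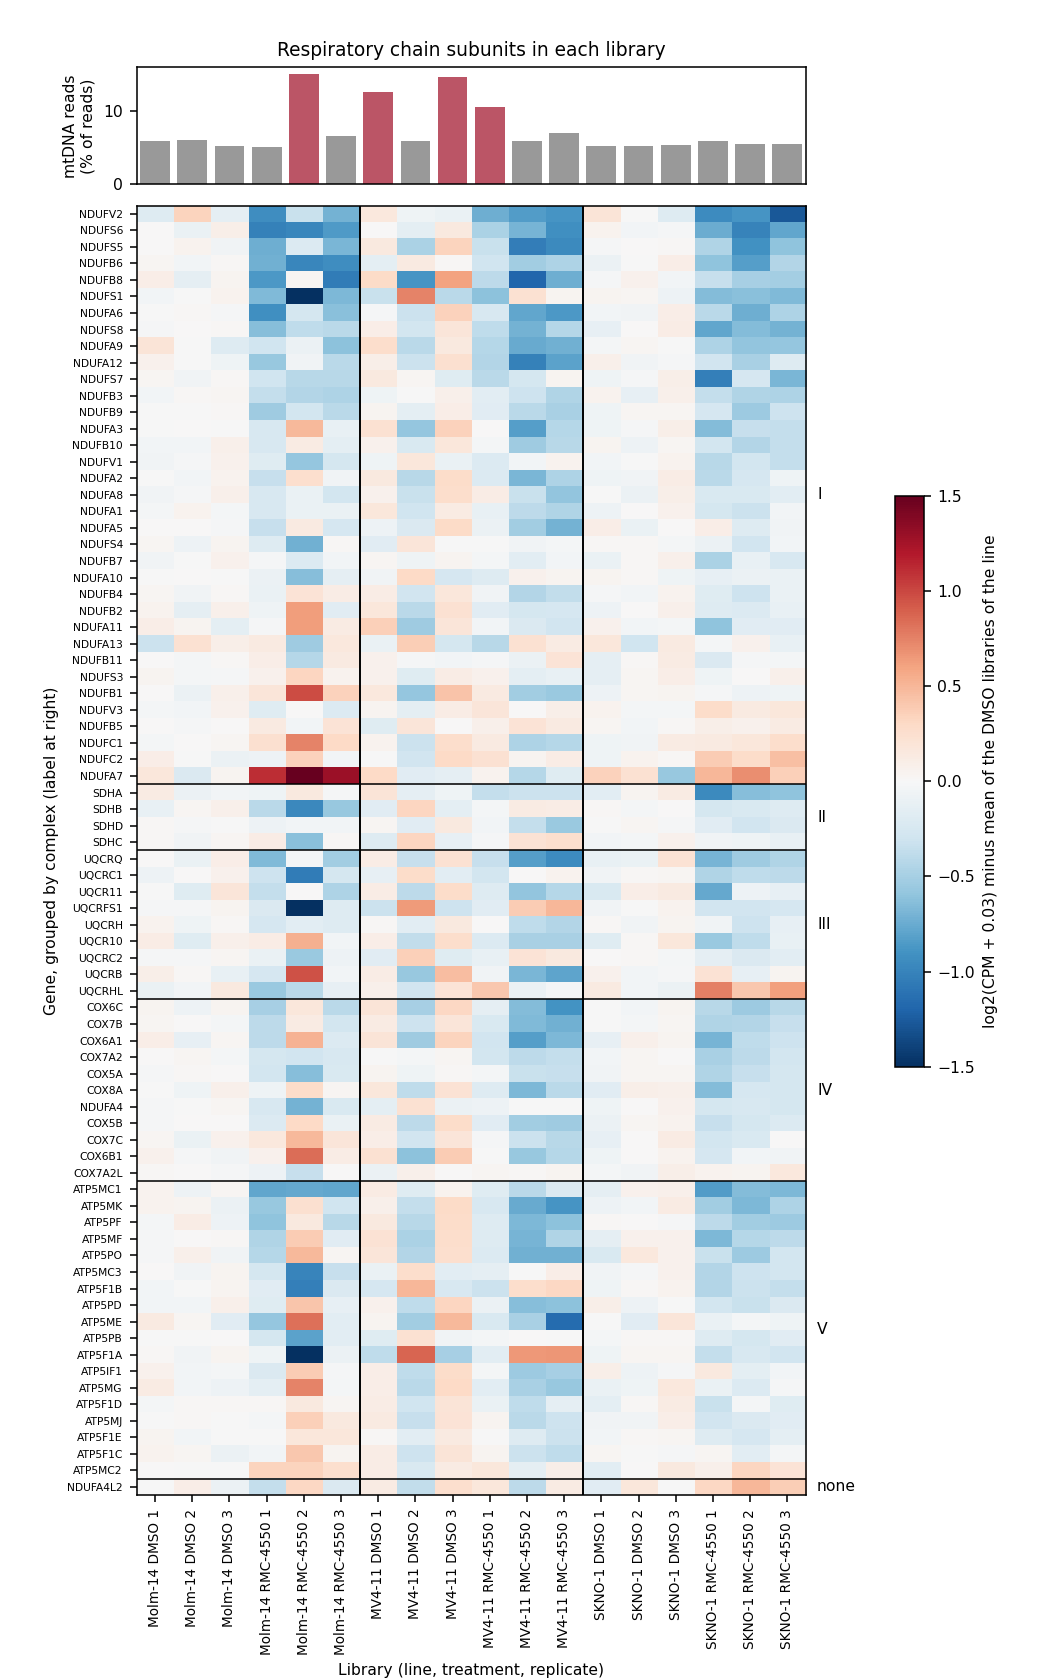
Level of 78 of the 79 members (rows, grouped by complex) in each of the 18 libraries (columns), as log2(CPM + 0.03) minus the mean of the 3 DMSO libraries of the same line, with colours limited to −1.5 and 1.5. Bars above give the percent of reads from mtDNA genes. The 4 libraries over 10% show a pattern of their own within their groups, with ATP5F1A, UQCRFS1 and NDUFS1 low.

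With RMC-4550, 18 members fell and 3 rose in Molm-14, 14 fell and none rose in MV4-11 (none also at an unadjusted p under 0.05), and 19 fell and 1 rose in SKNO-1 (limma, adjusted p under 0.05). In Molm-14 the members that fell were 22.8% of 79 against 25.2% of all genes tested, and those that rose 3.8% against 21.5%. In MV4-11 those shares were 17.7% against 8.03% for falls and 0 against 5.85% for rises. In SKNO-1 they were 24.1% against 16.2% and 1.27% against 10.8%. The share that fell was thus near the background in Molm-14 and above it in the other lines, and the share that rose was below the background in all 3. The median log2 change of the members was −0.15 for Molm-14, −0.27 for MV4-11 and −0.27 for SKNO-1, beside −0.06, −0.01 and −0.05 over all genes tested. Every treated culture lay below every DMSO culture for 30 members of Molm-14, 12 of MV4-11 and 53 of SKNO-1, beside 33.1%, 13.5% and 35.4% of genes, and above for 7, 0 and 7, beside 26.9%, 11.1% and 26.6%. The change was negative for 53, 66 and 68 of the 79, and for 42 in all 3 lines. No cell sorting or counting accompanies these bulk libraries, so fewer cells of a kind and less RNA per cell cannot be told apart.

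Leaving out the 4 libraries rich in mtDNA reads raised these counts. In the 14 other libraries 37 members fell and 4 rose of 78 tested in Molm-14, with backgrounds of 32.1% and 26.6%. In MV4-11 27 fell and 1 rose, with backgrounds of 19.6% and 8.85%. In SKNO-1, which has no such library, 51 fell and 6 rose, with backgrounds of 32.1% and 21.2%. The SKNO-1 libraries and changes are the same in both fits, and the spread was estimated without the 4. The median changes became −0.19, −0.18 and −0.27. The 3 rises in Molm-14 went to 0 without RMC-4550 replicate 2. In MV4-11 the count of 14 went to 41 without DMSO replicate 2, to 27 without RMC-4550 replicate 1, to 6 without DMSO replicate 1, and to 4 without DMSO replicate 3, RMC-4550 replicate 2 or RMC-4550 replicate 3. In SKNO-1 the count of 19 went to 10 without DMSO replicate 2 or 3 and to 11 without any 1 of the treated cultures, and under median-ratio scaling 12 members fell and 3 rose. The counts with a single culture left out or with other scaling have no share of all genes beside them.

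**Figure D2:**
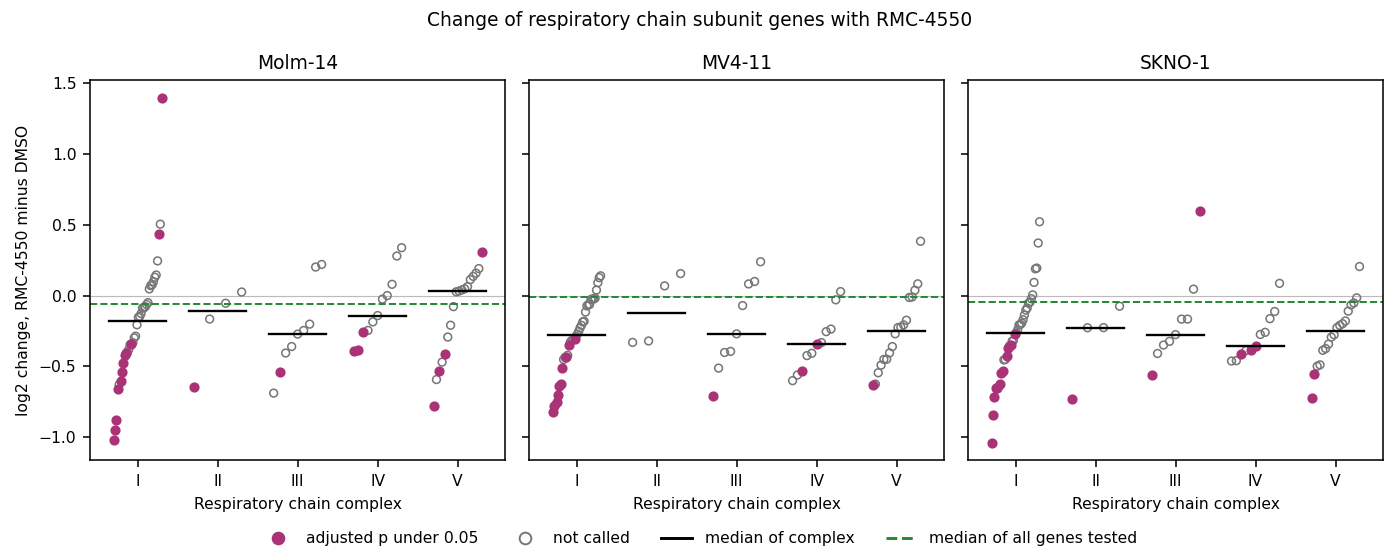
Log2 change with RMC-4550 (vertical axis) for each member by complex (horizontal axis), 1 panel per line. Filled points passed adjusted p under 0.05, black lines are the median of the complex, and the dashed line is the median of all genes tested. The median of each complex is below 0 in every line except complex V in Molm-14, at 0.03.

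A group of 9 members (11.4% of 79) fell in all 3 lines, beside 5.8% of the 12792 genes tested in all lines, and 8 of the 9 belong to complex I. None rose in all 3, beside 3.11%. Of the others, 7 fell in 2 lines and 10 in 1, no member fell in one line and rose in another, and 49 passed in no line. With a separate fit per line 1 member fell in MV4-11, so at most 1 could pass in all 3. The MV4-11 calls of the group thus rest on the spread estimated over all lines.

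NDUFS6, an accessory subunit that holds zinc and is needed late in complex I assembly, lies on chromosome 5 at 1801400 to 1816605 (GENCODE 29, GRCh38). In Molm-14 its levels were 80.2, 74.9 and 85.2 CPM with DMSO and 39.5, 40.6 and 44.3 CPM with RMC-4550. In MV4-11 they were 58.1, 52.3 and 64.4 against 41.8, 35.6 and 30.6 CPM. In SKNO-1 they were 29, 27.1 and 27.5 against 16.7, 13.9 and 16.2 CPM. Every treated culture lay below every DMSO culture of its line. The log2 changes were −0.95 (SE 0.114, adjusted p = 7.56e-06), −0.70 (adjusted p = 0.000568) and −0.84 (adjusted p = 4.44e-05). Without the 4 libraries they were −0.94, −0.66 and −0.84, each with a call.

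**Figure D3:**
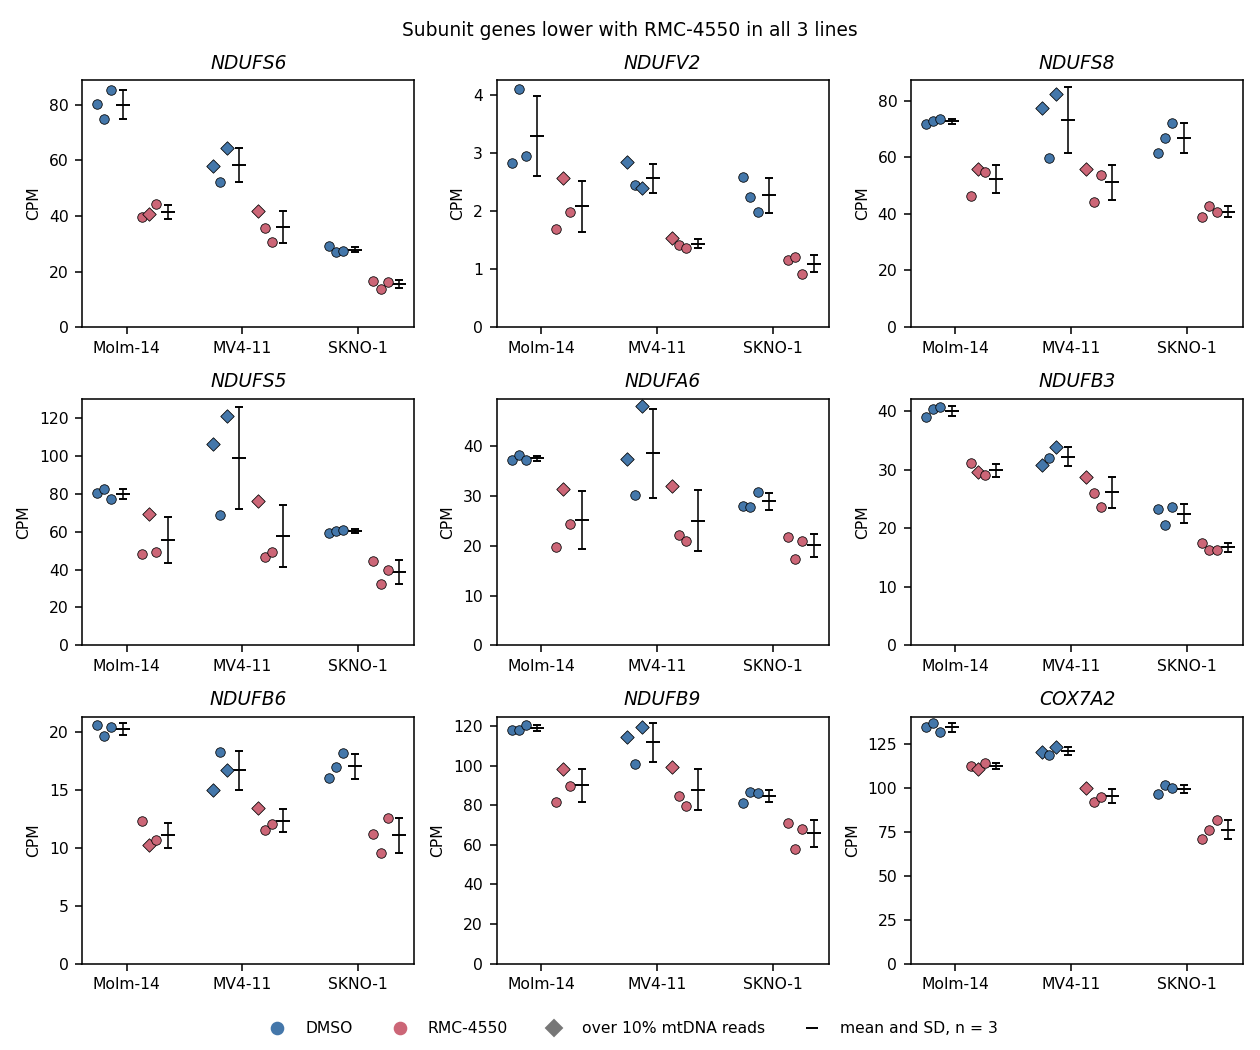
CPM (vertical axes, from 0) of the 9 members that fell in all 3 lines, by line and treatment. Points are cultures, diamonds are libraries with over 10% mtDNA reads, and bars are the mean and SD of 3. For NDUFS6 and COX7A2 the treated points lie below the DMSO points in each line, and in NDUFA6 and NDUFS5 the groups overlap in MV4-11.

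NDUFS8 and NDUFV2 are core subunits of complex I that bind iron-sulphur clusters on the path of the electrons. NDUFS8 was at 71.6, 72.8 and 73.5 CPM in Molm-14 with DMSO and at 46.5, 55.7 and 54.7 CPM with RMC-4550, which is a log2 change of −0.48 (SE 0.119, adjusted p = 0.0039). In MV4-11 it was at 77.4, 59.8 and 82.2 against 55.7, 44.1 and 53.7 CPM, a change of −0.51 (adjusted p = 0.00894). In SKNO-1 it was at 61.5, 66.8 and 72.2 against 38.7, 42.6 and 40.6 CPM, a change of −0.71 (adjusted p = 0.000322). The groups did not overlap in any line. The MV4-11 call was lost without the 4 libraries (−0.30, adjusted p = 0.0723), without DMSO replicate 3 (−0.42) and without RMC-4550 replicate 2 (−0.41). NDUFV2 was read at a far lower level, from 1.98 to 4.09 CPM with DMSO and from 0.919 to 2.56 CPM with RMC-4550 over the 3 lines. Its changes in the order Molm-14, MV4-11, SKNO-1 were −0.66, −0.82 and −1.04, with adjusted p of 0.0146, 0.0124 and 0.00118. Of its exon bases 28.4% are shared with other annotated genes, and whether reads were counted by strand is not given in the sources used here, so its level is uncertain. The MV4-11 call of NDUFV2 was lost without the 4 libraries (−0.81, adjusted p = 0.0592), without DMSO replicate 1 (−0.74) and without RMC-4550 replicate 3 (−0.79). Its Molm-14 call was lost without DMSO replicate 2 (−0.49) and without RMC-4550 replicate 1 (−0.52).

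The accessory subunits NDUFB6, NDUFB3 and NDUFB9 belong to the membrane arm of complex I. NDUFB6 was at 20.6, 19.7 and 20.4 CPM in Molm-14 with DMSO and at 12.3, 10.2 and 10.6 CPM with RMC-4550, which is a log2 change of −0.87 (SE 0.118, adjusted p = 2.35e-05). For MV4-11 the change was −0.43 (adjusted p = 0.0226), and for SKNO-1 it was −0.63 (adjusted p = 0.000865), with no overlap of groups in any line. NDUFB3 changed by −0.42, −0.31 and −0.42 and NDUFB9 by −0.41, −0.35 and −0.37, in the same order of lines, again with separate groups. In MV4-11 the NDUFB6 call was lost without DMSO replicate 2 (−0.36) or 3 (−0.43) and without RMC-4550 replicate 2 (−0.38) or 3 (−0.41). The NDUFB3 call there was lost without DMSO replicate 3 (−0.27), RMC-4550 replicate 2 (−0.31) or RMC-4550 replicate 3 (−0.24). The NDUFB9 call there was lost without DMSO replicate 1 (−0.33) or 3 (−0.30) and without RMC-4550 replicate 2 (−0.32) or 3 (−0.28), and in SKNO-1 without RMC-4550 replicate 2 (−0.28). All 3 genes kept their calls in each line over the 14 libraries under 10%.

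NDUFA6 and NDUFS5, further accessory subunits of complex I, and COX7A2, a small subunit of complex IV, complete the group. NDUFS5 was at 80.1, 82.6 and 77.0 CPM in Molm-14 with DMSO and at 48.0, 69.5 and 49.5 CPM with RMC-4550, which is a log2 change of −0.54 (adjusted p = 0.0425). In MV4-11 it was at 106, 69.0 and 121 against 76.3, 46.8 and 49.4 CPM, a change of −0.78 (adjusted p = 0.0205) with overlapping groups. In SKNO-1 its change was −0.65 (adjusted p = 0.0285). The NDUFS5 calls were fragile: in Molm-14 the call was lost without any 1 of the DMSO cultures or of RMC-4550 replicates 1 and 3 (−0.45 to −0.57), in MV4-11 without DMSO replicate 1 or 3 or RMC-4550 replicate 2 or 3 (−0.61 to −0.70), and in SKNO-1 without any 1 culture except RMC-4550 replicate 1 (−0.52 to −0.68). The changes over the 14 libraries were −0.71, −0.52 and −0.65, each with a call. NDUFA6 changed by −0.60, −0.63 and −0.53. Its call was lost in Molm-14 without RMC-4550 replicate 1 (−0.44), in MV4-11 without DMSO replicate 1 or 3 or RMC-4550 replicate 2 or 3 (−0.45 to −0.63), and in SKNO-1 without any 1 culture (−0.43 to −0.59). NDUFA6 changed over the 14 libraries by −0.77, −0.49 and −0.53, each with a call. COX7A2 changed by −0.26, −0.34 and −0.39, with SE 0.0662 and adjusted p of 0.00446, 0.00239 and 0.00041. The 9 COX7A2 levels with RMC-4550 were each below every DMSO level of their line, and its calls held without any 1 culture.

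Over the 14 libraries 20 members fell in all 3 lines, 7 of the 9 above among them, beside 15.8% of genes. The other 13 were ATP5F1B, ATP5MK, ATP5PB, COX5A, COX7B, NDUFA12, NDUFA4, NDUFB10, NDUFS1, UQCRC1, UQCRFS1, UQCRH and UQCRQ, named here after their values were seen. The MV4-11 part of these calls over the 14 rests on 1 DMSO library against 2 treated ones, with the spread taken from the other groups. With the share of mtDNA reads as a covariate, 27 members fell in all 3, including all 9, beside 15.9% of genes.

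By complex, complex I had 10 falls and 2 rises in Molm-14, 10 falls in MV4-11 and 12 falls in SKNO-1 of 36. The median log2 changes were −0.18, −0.28 and −0.27. The falls were 27.8%, 27.8% and 33.3%, beside 25.2%, 8.03% and 16.2% of all genes, near the background in Molm-14. The rises in Molm-14 were 5.56%, beside 21.5%. Complex I had, over the 14, 17 falls and 3 rises of 35 tested in Molm-14 and 22 falls and 3 rises in SKNO-1. Those falls were 48.6% and 61.1%, beside 32.1% of genes in both. For complexes I, III, IV and V, MV4-11 is given over the 14 by its median only, as it has 1 DMSO library there. The medians over the 14 were −0.19, −0.16 and −0.27. NDUFS1, the largest of the core subunits, which carry the flavin and the iron-sulphur clusters, was at 114, 117 and 122 CPM in Molm-14 with DMSO and at 74.4, 36 and 73.7 CPM with RMC-4550, a change of −1.01 (SE 0.293, adjusted p = 0.00986). The value of 36 CPM is the library with 15.0% mtDNA reads. Without it the change of NDUFS1 was −0.67 and missed the threshold in the fit over the other 17 libraries, while it passed over the 14 (−0.67, adjusted p = 1.03e-07). In MV4-11 NDUFS1 was at 53.4, 112 and 50.4 CPM with DMSO and at 43.6, 78.7 and 68.9 CPM with RMC-4550. The only DMSO library under 10% mtDNA reads is the one at 112 CPM, and the change went from −0.12 (adjusted p = 0.847) to −0.60 (adjusted p = 5.28e-05) over the 14. In SKNO-1 it was at 88.3, 87.6 and 81.2 against 54.5, 55.3 and 54.3 CPM, groups far apart, with a change of −0.65 that did not pass with the spread of all 18 libraries (adjusted p = 0.117) and did over the 14 (adjusted p = 5.54e-08).

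NDUFV1, which binds the flavin that takes electrons from NADH, fell in Molm-14 (−0.34, adjusted p = 0.0143) and SKNO-1 (−0.35, adjusted p = 0.0206) and was at −0.06 in MV4-11 (adjusted p = 0.751). Over the 14 it was at −0.22 with a call in Molm-14 and at −0.16 in MV4-11 (adjusted p = 0.131). Its Molm-14 call was lost without DMSO replicate 3 (−0.31) or RMC-4550 replicate 2 (−0.22), and its SKNO-1 call without DMSO replicate 2 (−0.35) or 3 (−0.32) or RMC-4550 replicate 1 (−0.32) or 3 (−0.35). NDUFS7, another core subunit, fell in SKNO-1 from 18.2, 18.8 and 20.2 CPM to 9.35, 16 and 11.8 CPM, a change of −0.65 (adjusted p = 0.00585), and 49.1% of its exon bases are shared with other annotated genes. NDUFS3, also a core subunit, had changes of 0.14, −0.06 and 0.00 and passed in no line over all libraries. NDUFA12, an accessory subunit, fell in MV4-11 from 78.4, 59.2 and 87.4 CPM to 54.7, 36.7 and 42.4 CPM (−0.75, adjusted p = 0.00497), and by 0.59 over the 14 with a call.

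NDUFA7 and NDUFC1 were the complex I genes that rose, both in Molm-14. NDUFA7, an accessory subunit, was at 0.611, 0.461 and 0.557 CPM with DMSO and at 1.2, 1.92 and 1.36 CPM with RMC-4550, a log2 change of 1.39 (SE 0.261, adjusted p = 0.00045). All 3 DMSO values are under 1 CPM and all 3 treated values over it, so NDUFA7 met the filter in Molm-14 only through the group where it is high, and its place among the 3 rises is no evidence of a rise. The values rest on 8 to 30 reads per library, and NDUFA7 was under the filter over the 14 libraries. Of its exon bases 33.5% are shared with other annotated genes, AC010323.1 having the largest overlap. NDUFC1 changed by 0.43 (adjusted p = 0.0453), and by 0.27 over the 14 with a call.

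Complex II, which links the tricarboxylic acid (TCA) cycle to the chain, had 1 fall in Molm-14, none in MV4-11 and 1 in SKNO-1. The 2 falls were different genes in the fit over all libraries. Of its 4 members these are 25%, 0 and 25%, beside 25.2%, 8.03% and 16.2% of all genes. SDHB, the iron-sulphur subunit, was at 88.7, 98.3 and 101 CPM in Molm-14 with DMSO and at 72.5, 48.9 and 64.8 CPM with RMC-4550, which is a log2 change of −0.65 (SE 0.135, adjusted p = 0.00107). Over the 14 it was −0.49. In MV4-11 SDHB was at 58.1, 81.3 and 58.9 against 63.9, 71.2 and 70.3 CPM (0.07, adjusted p = 0.801), and at −0.20 (adjusted p = 0.0932) over the 14. SDHA, the flavoprotein that oxidises succinate, was at 16.4, 18.7 and 19.9 CPM in SKNO-1 under DMSO and at 9.39, 11.7 and 12 CPM with RMC-4550, a change of −0.73 (SE 0.119, adjusted p = 0.000266). In Molm-14 SDHA was at 24.1, 20.7 and 21.4 against 21.1, 24.4 and 21.8 CPM, fully overlapping. SDHA has near-identical pseudogenes in the table that may share its reads: in SKNO-1 SDHAP1 went from a mean of 17.3 to 14.5 CPM and SDHAP3 from 12.4 to 17.7 CPM. SDHC and SDHD, the membrane anchors, passed in no line over all libraries. Over the 14, SDHB (−0.23), SDHA (−0.73) and SDHD (−0.23) fell in SKNO-1, SDHB alone fell in Molm-14, and SDHC passed in no line. In MV4-11 none of the 4 passed over all libraries, 2 were lower at an unadjusted p under 0.05, and SDHD alone fell over the 14 (−0.28, adjusted p = 0.0155).

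Complex III had 1 fall in each line of 9 members (11.1%), beside 25.2%, 8.03% and 16.2% of all genes. Its medians were −0.27, −0.27 and −0.28. Over the 14 it had 5 falls in Molm-14 (55.6%) and 6 in SKNO-1 (66.7%), beside 32.1% of genes in both. The medians over the 14 were −0.23, −0.18 and −0.28. UQCRC1, a core protein, fell in Molm-14 from 213, 225 and 233 CPM to 181, 108 and 186 CPM (−0.54, adjusted p = 0.0144). Without RMC-4550 replicate 2, at 108 CPM, its change was −0.28 with no call in the fit over 17 libraries, and over the 14 it was −0.28 with adjusted p = 0.000159. UQCRQ, a small subunit near the coenzyme Q pocket, fell in MV4-11 (−0.71, adjusted p = 0.0183) and SKNO-1 (−0.56, adjusted p = 0.0339) and was at −0.41 in Molm-14 (adjusted p = 0.0842). Over the 14 it fell in Molm-14 (−0.59) and MV4-11 (−0.54). Its MV4-11 call was lost without DMSO replicate 1 or 3 or RMC-4550 replicate 2 or 3 (−0.59 to −0.65) and its SKNO-1 call without any 1 culture (−0.45 to −0.62). UQCRHL, an intronless copy of the hinge protein gene UQCRH, rose in SKNO-1 from 9.18, 8.12 and 7.91 CPM to 14.2, 11.1 and 12.8 CPM (0.59, adjusted p = 0.0134). Reads of UQCRHL and UQCRH may have been split between the copies by the counting, and the call was lost without DMSO replicate 3 (0.55) or RMC-4550 replicate 1 (0.51). UQCRC2, the other core protein, was at −0.25, 0.08 and −0.17, with no call over all libraries, and it fell over the 14 in MV4-11 (−0.18). Of complex III, the Rieske protein gene UQCRFS1 differed most negatively between libraries over and under 10% mtDNA reads on the mean of the groups, with 135, 49.8 and 136 CPM in treated Molm-14 against 154, 154 and 161 CPM.

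Complex IV had 3 falls for Molm-14, 2 for MV4-11 and 3 for SKNO-1 of 11, and no rise (none at an unadjusted p under 0.05 either). The falls were 27.3%, 18.2% and 27.3%, beside 25.2%, 8.03% and 16.2% of all genes, and the medians −0.14, −0.34 and −0.35. Over the 14 the falls were 7 in Molm-14 (63.6%) and 8 in SKNO-1 (72.7%), beside 32.1% of genes in both. The medians over the 14 were −0.23, −0.22 and −0.35. With 1 Molm-14 culture left out at a time the Molm-14 median ran from −0.23 to −0.08. Beside COX7A2, COX7B fell in MV4-11 (−0.53, adjusted p = 0.0235) and SKNO-1 (−0.41, adjusted p = 0.0491). Its MV4-11 call was lost without DMSO replicate 1 or 3 or RMC-4550 replicate 2 or 3 (−0.44 to −0.47), and its SKNO-1 call without any 1 culture (−0.39 to −0.44). Over the 14 COX7B fell in Molm-14 (−0.34) and MV4-11 (−0.38), and COX7A2 was at −0.25 and −0.35, each with a call. COX5A fell in Molm-14 (−0.38, and −0.25 over the 14) and SKNO-1 (−0.35), and over the 14 also in MV4-11 (−0.28). NDUFA4 fell in Molm-14 (−0.39, adjusted p = 0.0112), with no call without RMC-4550 replicate 2 (−0.23), while over the 14 it fell in Molm-14 (−0.23) and MV4-11 (−0.23). COX7A2L, which helps complexes III and IV join in supercomplexes, had changes of −0.14, 0.03 and 0.09, none with a call. COX6A1 and COX8A, the forms found in most tissues, were at −0.03, −0.60 and −0.46 and at 0.08, −0.42 and −0.39, with no call, and over the 14 both fell in SKNO-1 and COX6A1 in Molm-14 (−0.30). Among tissue paralogues, the heart and muscle forms COX6A2, COX7A1 and the testis forms COX7B2 and COX8C were each under 1 CPM in every library, while COX6B2 reached 1.43 CPM in treated SKNO-1.

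Complex V had 3 falls and 1 rise in Molm-14, 1 fall in MV4-11 and 2 falls in SKNO-1 of 18. The falls were 16.7%, 5.56% and 11.1%, below the 25.2%, 8.03% and 16.2% of all genes. The medians were 0.03, −0.25 and −0.25. Without RMC-4550 replicate 2 the Molm-14 median was −0.17. Over the 14 complex V had 7 falls in Molm-14 (38.9%) and 12 in SKNO-1 (66.7%), beside 32.1% of genes in both, and 1 rise in each. The medians over the 14 were −0.17, −0.18 and −0.25. The 3 gene copies that encode the same mature c subunit of the membrane ring differed within a line. ATP5MC1 fell in Molm-14 from 76.3, 70.0 and 75.0 CPM to 42.8, 43.4 and 42.9 CPM (−0.78, SE 0.096, adjusted p = 1.01e-05). It fell in SKNO-1 from 42.4, 48.6 and 49.1 CPM to 26.0, 29.7 and 29.2 CPM (−0.72, adjusted p = 3.96e-05), and in MV4-11 it was at 68.4, 55.1 and 65.1 against 55.0, 47.1 and 54.0 CPM (−0.27, adjusted p = 0.0764; −0.13 over the 14). ATP5MC2, the most abundant copy, rose in Molm-14 from 453, 451 and 452 CPM to 569, 570 and 536 CPM (0.31, adjusted p = 0.0323). The rise was lost without any 1 of the Molm-14 cultures other than RMC-4550 replicate 3 (0.29 to 0.31), although the groups did not overlap, and over the 14 libraries it was 0.29 with a call. ATP5MC3 fell in Molm-14 (−0.53, adjusted p = 0.0091; −0.30 over the 14 with a call), while in SKNO-1 its −0.34 had adjusted p = 0.108. ATP5MC1 and ATP5MC2 each have named pseudogenes in the table, so their counts carry that uncertainty.

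The 5 genes of the F1 head, where ATP is made, passed in no line in the fit over all libraries (limma; at an unadjusted p under 0.05, 1 was lower in SKNO-1), while over the 14 the numbers that fell were 1 for Molm-14, 2 for MV4-11 and 3 for SKNO-1, beside 32.1%, 19.6% and 32.1% of genes. ATP5F1A, the catalytic partner subunit alpha, was at 573, 546 and 587 CPM in Molm-14 with DMSO and at 542, 185 and 534 CPM with RMC-4550. In MV4-11 it was at 228, 546 and 210 against 266, 465 and 469 CPM, so that the 3 low values are the 3 libraries rich in mtDNA reads. Its MV4-11 change was 0.38 (adjusted p = 0.57) over all libraries and −0.23 (adjusted p = 0.0216) over the 14. ATP5F1B, the catalytic subunit beta, was at 749, 794 and 810 CPM in SKNO-1 under DMSO and at 577, 629 and 611 CPM with RMC-4550, a change of −0.37 with adjusted p = 0.243 over all libraries and 7.21e-06 over the 14. ATP5MK, a small membrane subunit, fell in MV4-11 (−0.63) and SKNO-1 (−0.55) with adjusted p of 0.0441 and 0.0483, and over the 14 it fell in Molm-14 (−0.43) and MV4-11 (−0.46). The MV4-11 call of ATP5MK was lost without DMSO replicate 1 or 3 or RMC-4550 replicate 2 or 3 (−0.49 to −0.59), and the SKNO-1 call without any 1 culture (−0.49 to −0.60). ATP5IF1, the inhibitor of ATP hydrolysis, passed in no line, nor did NDUFA4L2, which was at 5.31 to 10.5 CPM in all libraries.

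Within groups, the members themselves moved with the share of mtDNA reads. The high libraries minus the low ones of the same group had a median difference over the 79 members of 0.20 in treated Molm-14, 0.41 in MV4-11 with DMSO and 0.30 in treated MV4-11 (log2), where 52, 59 and 60 members were higher. Over all genes the medians were −0.09, −0.06 and −0.02. ATP5F1A differed most negatively in each group, by −1.54, −1.32 and −0.81, and UQCRFS1 and NDUFS1 followed on the mean of the groups. NDUFB8, UQCRB, ATP5ME, NDUFB1 and COX6B1 were the most positive on that mean. Across the 79 members Pearson's r between this difference and log2 coding length was −0.55, −0.59 and −0.65, and Spearman's rho was −0.49, −0.52 and −0.56. Members share their libraries, so this is a description with no test. For the change with RMC-4550 over all libraries, the members at or under the median coding length of 426 nt and those over it had medians of −0.08 and −0.30 in Molm-14, −0.34 and −0.18 in MV4-11, and −0.25 and −0.28 in SKNO-1. Over the 14 libraries under 10% those medians were −0.21 and −0.19 in Molm-14 and −0.13 and −0.21 in MV4-11, with SKNO-1 the same. The longer members thus had the more negative median in Molm-14 and the shorter ones in MV4-11 over all libraries, and neither order held over the 14.

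**Figure D4:**
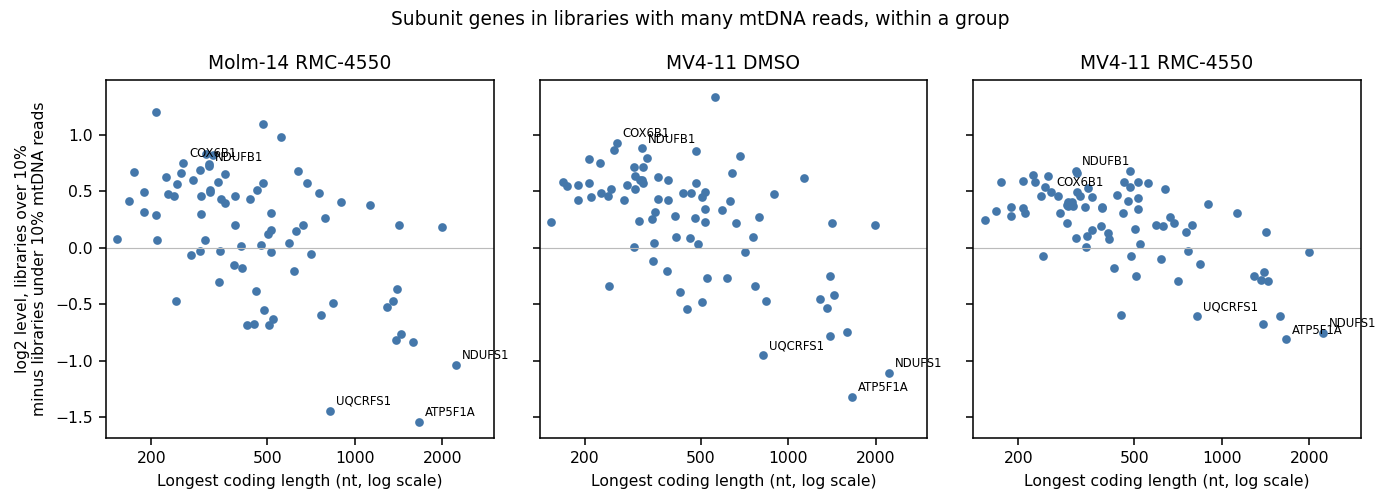
Difference in log2 level between libraries over and under 10% mtDNA reads of the same group (vertical axis) against longest coding length (horizontal axis, log scale) for the 79 members, in the 3 groups that hold both kinds. Longer members such as ATP5F1A and NDUFS1 lie below 0 and most short ones above.

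The 13 subunits encoded by mtDNA, which join the nuclear ones in complexes I, III, IV and V, took 3.73% to 5.40% of reads in 14 libraries and 7.93% to 11.2% in the other 4. None passed in any line over all libraries (limma; at an unadjusted p under 0.05, 1 was higher in Molm-14 and none in the other lines), and their median log2 changes were 0.45 for Molm-14, −0.53 for MV4-11 and −0.03 for SKNO-1. MT-CO1, the catalytic subunit of complex IV, had a change of −0.01 (SE 0.354, adjusted p = 0.986) in SKNO-1, where the mtDNA share hardly varied. Over the 14 libraries MT-CO1 was at −0.11 (adjusted p = 0.39) in Molm-14 and 0.00 (adjusted p = 0.986) in MV4-11. There 2 mtDNA-encoded subunits rose in Molm-14 and 2 in SKNO-1 (15.4% of 13 in each), below the 26.6% and 21.2% of all genes that rose. MT-ND3, a complex I subunit, rose in both, by 0.41 (adjusted p = 0.000454) and 0.36 (adjusted p = 0.000745). MT-CYB of complex III rose in Molm-14 (0.28) and MT-ND1 of complex I in SKNO-1 (0.31). The other 10, namely MT-ND2, MT-ND4, MT-ND4L, MT-ND5, MT-ND6, MT-CO1, MT-CO2, MT-CO3, MT-ATP6 and MT-ATP8, passed in no line over the 14. Transcripts of mtDNA were read after oligo(dT) selection, so the level of their total RNA was not measured.

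**Figure D5:**
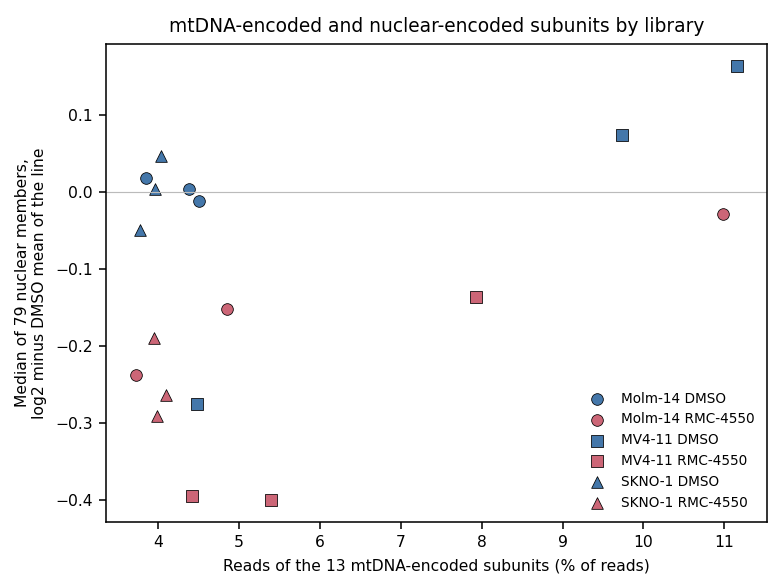
Median over the 79 nuclear members of log2 level minus the DMSO mean of the line (vertical axis) against the percent of reads from the 13 mtDNA-encoded subunits (horizontal axis), 1 point per library. In MV4-11 the DMSO library at 4.48% lies near the treated ones, below the DMSO libraries at 9.74% and 11.2%.

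The differences between the responses of the lines concerned few members. Set against the FLT3-ITD lines averaged, SKNO-1 had a more negative response for SDHA alone and a more positive one for none, beside 2.22% and 1.23% of genes. Between Molm-14 and MV4-11 the response was more negative in Molm-14 for SDHB and ATP5MC1 and more positive for NDUFA7, beside 8.04% and 9.58%. For the other members no difference between the responses passed, which does not show that the lines respond alike. Both contrasts share the Molm-14 and MV4-11 cultures. In the 14 libraries SKNO-1 had a more negative response for SDHA and a more positive one for UQCRHL (0.65), beside 9.46% and 6.01% of genes. Between Molm-14 and MV4-11 it was there more negative in Molm-14 for ATP5MC1, NDUFB8 (−0.88) and NDUFV3 (−0.38) and more positive for NDUFC1 (0.40), beside 7.06% and 8.56%; those not among the calls over all libraries are named after their values were seen. Without MV4-11 DMSO replicate 2, the only DMSO library of that line under 10% mtDNA reads, 12 members had a more negative and 25 a more positive response in Molm-14 than in MV4-11. The share of all genes in that fit is not given. The SDHA difference was lost without Molm-14 DMSO replicate 2 or 3, MV4-11 DMSO replicate 3 or SKNO-1 DMSO replicate 2 or 3 among others (−0.47 to −0.63).

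With DMSO alone the lines differed in the level of these genes, and between MV4-11 and Molm-14 the direction turned with scaling. SKNO-1 was lower than Molm-14 for 32 members and higher for 5, beside 32.7% and 32.5% of genes, with a median difference of −0.36 (log2), and with totals of nuclear reads only the counts were 14 and 11. SKNO-1 was lower than MV4-11 for 34 members and higher for none, beside 22.2% and 19.4%, with a median of −0.34, and with nuclear totals the counts were 26 and 3. MV4-11 was lower than Molm-14 for 20 members and higher for 12, beside 27.9% and 26.2%, which turned to 5 and 21 with nuclear totals. In the 14 libraries MV4-11 was lower than Molm-14 for 29 members and higher for 5, beside 25.0% and 26.5%. SKNO-1 was there lower than Molm-14 for 53 and higher for 8, beside 40.8% and 40.1%, and lower than MV4-11 for 29 and higher for 4, beside 24.6% and 16.6%. The number of members lower in MV4-11 than in Molm-14 was 9 without MV4-11 DMSO replicate 3, and the number higher was 5 without it and 25 without MV4-11 DMSO replicate 2. SKNO-1 was lower than MV4-11 for 20 members without MV4-11 DMSO replicate 3. NDUFS6 was the lowest in SKNO-1 relative to Molm-14 (−1.52, adjusted p = 5.83e-09) and to MV4-11 (−1.06, adjusted p = 1.91e-06). NDUFC2, NDUFA11 and NDUFA7, accessory subunits of complex I, were higher in MV4-11 than in Molm-14 by 1.02, 0.95 and 1.67, and by 0.74, 0.41 and 1.5 over the 14 libraries. NDUFC2 and NDUFA7 were also higher in SKNO-1 than in Molm-14, by 0.99 and 1.81. Every Molm-14 DMSO value of NDUFA7 is under 1 CPM, so it met the filter only through groups where it is higher. Its place among the members higher than in Molm-14 is thus no evidence of a higher level. UQCRB and NDUFA12 were lower in SKNO-1 than in MV4-11, with differences of −1.03 and −0.91, and of −0.46 and −0.59 over the 14. These contrasts share their DMSO cultures, and those with MV4-11 over the 14 rest on 1 DMSO library of that line. Counts with nuclear totals or with a culture left out have no share of all genes beside them.

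Per kilobase of longest transcript, the median DMSO level of complex IV members was 92.4 CPM per kb for Molm-14, 125 for MV4-11 and 72.7 for SKNO-1, the highest of the 5 complexes in each line. Complex I members had medians of 31.4, 29.9 and 23.2 CPM per kb. The range within a complex was wider than that between complexes: complex V ran from 9.33 CPM per kb for ATP5PO to 596 for ATP5F1B in Molm-14. Longest transcripts are not the ones each line uses, so these levels are rough.

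Genes around the chain were followed by lists. CYCS, cytochrome c, which carries electrons from complex III to IV, fell in all 3 lines: in Molm-14 from 202, 188 and 190 CPM to 75.8, 92.2 and 74.9 CPM (−1.26, SE 0.11, adjusted p = 3.03e-07; −1.36 over the 14), in MV4-11 by 0.62 (adjusted p = 0.00117; −0.61 over the 14) and in SKNO-1 from 70.2, 69.5 and 71.7 CPM to 34.9, 28.3 and 34.5 CPM (−1.12, adjusted p = 1.79e-06). NDUFAB1, the acyl carrier protein of complex I, fell by 0.42 in Molm-14 and by 0.51 in SKNO-1, beside a value of −0.31 in MV4-11 (adjusted p = 0.0519; −0.54 over the 14 with a call). CYC1, cytochrome c1 of complex III, fell in SKNO-1 (−0.46, adjusted p = 0.000596), and COX4I1 passed in no line over all libraries and fell in SKNO-1 over the 14 (−0.26). Assembly factors had 14 falls and 6 rises of 47 tested in Molm-14, 4 and none of 48 in MV4-11, and 12 and 1 of 48 in SKNO-1, with medians of −0.20, −0.11 and −0.17. The falls were 29.8%, 8.33% and 25.0% of those tested, beside 25.2%, 8.03% and 16.2% of all genes, near the background in Molm-14 and MV4-11. Over the 14, 23 fell in Molm-14 and 22 in SKNO-1, beside 32.1% of genes in both. The medians of the assembly factors over the 14 were −0.20, −0.12 and −0.17. UQCC2, needed to build complex III, fell in all 3 lines (−0.92, −0.84 and −1.08), and so did the complex I factor NDUFAF4 (−0.75, −0.46 and −0.76). In MV4-11 the UQCC2 call was lost without DMSO replicate 3 (−0.64) or RMC-4550 replicate 2 (−0.73) or 3 (−0.79), and the NDUFAF4 call without DMSO replicate 1 or 3 or RMC-4550 replicate 2 or 3 (−0.41 to −0.43) and over the 14 libraries (−0.41). The complex I factor ACAD9 fell in Molm-14 (−0.51) and SKNO-1 (−0.80). So did COA7, of complex IV (−0.81 and −0.67), both with no call in MV4-11. SURF1, a complex IV assembly factor, rose in Molm-14 from 13.4, 14 and 14.1 CPM to 18.9, 21.7 and 21.9 CPM (0.59, adjusted p = 0.000198). Its rise in SKNO-1 (0.30, adjusted p = 0.0361) was lost without any 1 culture (0.25 to 0.33).

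Among 15 regulators of mitochondrial biogenesis tested, 10 fell and 1 rose in Molm-14, 3 fell in MV4-11 and 6 fell in SKNO-1, with medians of −0.54, 0.04 and −0.43. The falls were 66.7%, 20% and 40% of those tested, beside 25.2%, 8.03% and 16.2% of all genes. Over the 14 they numbered 10 in Molm-14 and 10 in SKNO-1 (66.7% in each), beside 32.1% of genes in both. The regulators had medians over the 14 of −0.40, −0.14 and −0.43, so the MV4-11 median was negative there. TFB1M, which methylates mitochondrial ribosomal RNA, fell in all 3 lines (−1.20, −0.57 and −0.43), in Molm-14 from 25.3, 25.5 and 25.5 CPM to 11.7, 10.2 and 11.4 CPM. TFAM, which packages and transcribes mtDNA, fell in Molm-14 from 86.1, 86.0 and 81.8 CPM to 45.3, 29 and 38.7 CPM (−1.19, adjusted p = 2.17e-05). Its lowest value, 29 CPM, is the library with 15.0% mtDNA reads, which enters this change. PPRC1, a growth-responsive coactivator, fell in SKNO-1 from 40.3, 38.0 and 39.1 CPM to 18, 21.4 and 20.6 CPM (−0.97, adjusted p = 2.83e-05), and MYC fell in Molm-14 (−1.71, adjusted p = 0.00485; −1.09 over the 14 libraries). Of 13 TCA cycle genes 7, 2 and 4 fell, with medians of −0.66, 0.15 and −0.32. These are 53.8%, 15.4% and 30.8%, beside 25.2%, 8.03% and 16.2% of all genes. Over the 14, 10 fell in Molm-14 (76.9%) and 12 in SKNO-1 (92.3%), beside 32.1% of genes in both. The medians over the 14 were −0.42, −0.26 and −0.32. IDH3A and MDH2 had the changes of −1.08 and −0.89 in Molm-14, which were −0.71 and −0.42 over the 14, and the MDH2 call was lost without any 1 of the DMSO cultures or without RMC-4550 replicate 2 in the fit over 17 libraries. FH, fumarase, fell in all 3 lines (−0.995, −0.40 and −0.70), with no call in MV4-11 without any 1 culture (−0.27 to −0.46), and SUCLG1, of succinyl-CoA ligase, also fell in all 3 (−0.59, −0.35 and −0.49), with no call in MV4-11 without RMC-4550 replicate 3 (−0.30). Of 11 genes of coenzyme Q synthesis 2, 3 and 4 fell, which are 18.2%, 27.3% and 36.4%, below the 25.2% of all genes in Molm-14 and above the 8.03% and 16.2% in the other lines. Over the 14, 4 fell in Molm-14 (36.4%) and 5 in SKNO-1 (45.5%), beside 32.1% of genes in both. Their medians were −0.21, −0.04 and −0.22 over all libraries and −0.18, −0.19 and −0.22 over the 14. PDSS1 and COQ2, which make and attach the side chain, fell in each line, PDSS1 with changes of −0.94, −0.35 and −0.77 and COQ2 with −0.81, −0.45 and −0.84. In MV4-11 the PDSS1 call was lost without DMSO replicate 3 (−0.30) or RMC-4550 replicate 2 (−0.35) or 3 (−0.35), and the COQ2 call without DMSO replicate 3 (−0.40) or RMC-4550 replicate 3 (−0.42).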

How the data were processed

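RNA-seq was done on 18 cultures, 3 per group. The authors deposited 1 table of log2 values for 40184 Ensembl gene IDs, of which 40069 matched a symbol. Per the submitters' processing notes, FastQC, STAR and limma were used with GRCh38. Versions, the counting tool, its strand setting and filters are not given in the sources used here. Each value is log2 of reads plus 0.5 scaled to a library of 1000000: whole reads were recovered for 100% of values under 300 reads within 0.05 read. CPM is the linear value without the added 0.5. Scaling factors ran from 0.890 to 1.11.

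Tests used limma 3.58.1 in R 4.3.3 on the deposited log2 values, with 6 group means, a trended variance and Benjamini-Hochberg adjustment over every gene that reached 1 CPM in 3 or more samples of the lines compared. A call is an adjusted p under 0.05. Folds are on this log2 scale, which understates low genes. On simulated data for 15943 genes, 80 of 99 genes changed by 1 on the log2 scale and 96 of 100 changed by 1.5 were recovered in the Molm-14 contrast, with 4.35% false calls. The simulation gave all libraries the same fixed dispersion and held none rich in mtDNA reads. It changed far fewer genes than were called here, and by more than most members changed. Its shares therefore do not carry over to the calls in these data. Alternatives were other scalings, filters, pseudocounts, weights, fits and covariates, the libraries under 10% mtDNA reads, and leaving out each culture.

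Genes are named by role, as the largest called change of each complex and line, as shared calls, and as the 3 largest differences between lines; of the other lists, up to 3 called genes per line. One member stays in all fits and counts and is not reported here on its own. Further genes were named after their values were seen. The members and lists were chosen with earlier results of these data known. Genes come from GENCODE 29 and promoters from RefSeq. Library totals of 17434810 to 19959917 reads set the precision of genes near 1 CPM.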

Additional observations from a re-analysis of the deposited data

Results flagged for a closer look

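The response of SDHA, on chromosome 5 at 218241 to 256700 (plus strand, GRCh38, GENCODE 29), differed between SKNO-1 and the mean of the other lines by −0.5786 on the log2 scale (SE 0.146, adjusted p = 0.038, limma). Over the 14 libraries under 10% mtDNA reads it was −0.62 (adjusted p = 0.00567). In SKNO-1 each treated culture was below each DMSO culture, and in Molm-14 the groups overlapped. The call for the SDHA difference was lost with no filter on low values, median-ratio scaling, nuclear read totals or a replicate block. It was also lost with a fold threshold of 1.5 and when some single cultures were left out. Near-identical pseudogenes may share reads of SDHA, as described above.

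Between Molm-14 and MV4-11 the responses of 3 members differed. Of these, NDUFA7 is under 1 CPM in every Molm-14 DMSO culture, as described above. For NDUFA7, on chromosome 19 at 8308768 to 8321396 (minus strand), the difference was 1.5806 (SE 0.369, adjusted p = 0.00996), and 1.34 (adjusted p = 0.0613) over the 14. For SDHB, on chromosome 1 at 17018722 to 17054170 (minus strand), it was −0.7153 (SE 0.191, adjusted p = 0.0192), and −0.29 (adjusted p = 0.0818) over the 14. It was lost without MV4-11 DMSO replicate 1 (−0.63) or 3 (−0.64) or RMC-4550 replicate 2 (−0.69). For ATP5MC1, on chromosome 17 at 48892765 to 48895871 (plus strand), it was −0.5073 (SE 0.136, adjusted p = 0.0194), and −0.66 (adjusted p = 0.0035) over the 14. It was lost without MV4-11 RMC-4550 replicate 3 (−0.48). The SDHB and NDUFA7 differences thus missed the threshold without the libraries rich in mtDNA reads, whose part in them was not tested further. Over the 14, MV4-11 has 1 DMSO library, so its spread there is taken from the other groups.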

How the results depend on the processing

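The direction of the medians of complexes I to IV held in each line under every alternative run, while that of complex V in Molm-14 turned. The cause of each change was not tested, except that fewer libraries or genes enter where an alternative leaves them out. Counts name members that passed and were lower or higher.

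With the mtDNA share as a covariate, the counts of members were 43 lower in Molm-14, 31 lower in MV4-11, 2 higher in MV4-11, 50 lower in SKNO-1 and 5 higher in SKNO-1. With that covariate, the counts of members were 1 with a more positive SKNO-1 response than the other lines, 6 with a more negative Molm-14 response than MV4-11, 7 higher in MV4-11 than in Molm-14 with DMSO, 53 lower in SKNO-1 than in Molm-14 with DMSO and 8 higher in SKNO-1 than in Molm-14 with DMSO. Under the mtDNA covariate, the counts of members were 4 higher in SKNO-1 than in MV4-11 with DMSO. In the libraries under 10% mtDNA reads, the counts of members were 37 lower in Molm-14, 27 lower in MV4-11, 1 higher in MV4-11, 51 lower in SKNO-1 and 6 higher in SKNO-1. Without the 4 libraries rich in mtDNA reads, the counts of members were 1 with a more positive SKNO-1 response than the other lines, 5 higher in MV4-11 than in Molm-14 with DMSO, 53 lower in SKNO-1 than in Molm-14 with DMSO, 8 higher in SKNO-1 than in Molm-14 with DMSO and 4 higher in SKNO-1 than in MV4-11 with DMSO. With a fold threshold of 1.5, the counts of members were 7 lower in Molm-14, 1 higher in Molm-14, 8 lower in MV4-11, 8 lower in SKNO-1 and 0 with a more negative SKNO-1 response than the other lines. With a fold threshold of 1.5, the counts of members were 1 with a more negative Molm-14 response than MV4-11, 4 lower in MV4-11 than in Molm-14 with DMSO, 6 higher in MV4-11 than in Molm-14 with DMSO, 15 lower in SKNO-1 than in Molm-14 with DMSO and 16 lower in SKNO-1 than in MV4-11 with DMSO. With no filter on low values, the counts of members were 1 higher in Molm-14, 9 lower in MV4-11, 12 lower in SKNO-1, 0 with a more negative SKNO-1 response than the other lines and 1 with a more negative Molm-14 response than MV4-11. With a separate fit per line, the counts of members were 1 lower in MV4-11, 53 lower in SKNO-1, 6 higher in SKNO-1, 0 with a more negative Molm-14 response than MV4-11 and 10 lower in MV4-11 than in Molm-14 with DMSO. With a separate fit per line, the counts of members were 1 higher in SKNO-1 than in MV4-11 with DMSO. With median-ratio scaling, the counts of members were 12 lower in SKNO-1, 3 higher in SKNO-1, 0 with a more negative SKNO-1 response than the other lines and 2 higher in SKNO-1 than in MV4-11 with DMSO. With nuclear read totals, the counts of members were 12 lower in SKNO-1, 0 with a more negative SKNO-1 response than the other lines, 5 lower in MV4-11 than in Molm-14 with DMSO, 21 higher in MV4-11 than in Molm-14 with DMSO and 14 lower in SKNO-1 than in Molm-14 with DMSO. With nuclear read totals, the counts of members were 11 higher in SKNO-1 than in Molm-14 with DMSO and 3 higher in SKNO-1 than in MV4-11 with DMSO. With log2(CPM + 1), the counts of members were 2 higher in SKNO-1 and 1 with a more positive SKNO-1 response than the other lines. With voom weights, the counts of members were 2 higher in SKNO-1. With a mean of at least 5 CPM, the counts of members were 0 with a more positive Molm-14 response than MV4-11.

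With the mtDNA share as a covariate, the medians were −0.24 for complex I in Molm-14 and −0.18 for complex V in Molm-14. Over the 14 libraries under 10% mtDNA reads, the median was −0.17 for complex V in Molm-14. With median-ratio scaling, the medians were −0.20 for complex I in SKNO-1, −0.16 for complex II in SKNO-1 and −0.19 for complex V in SKNO-1. With nuclear read totals, the median was −0.19 for complex II in SKNO-1. Within the spread of the replicates, medians that moved by over 1.5 times in the 14 libraries were those of MV4-11 for complex I (−0.16), complex II (−0.19), complex III (−0.18) and complex IV (−0.22), and those of Molm-14 for complex II (−0.05) and complex IV (−0.23).

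Under the mtDNA covariate, the sign turned for ATP5F1A in MV4-11 (−0.16), ATP5F1B in MV4-11 (−0.23), ATP5F1C in Molm-14 (−0.038), ATP5F1D in Molm-14 (−0.041) and ATP5IF1 in Molm-14 (−0.17). Under the mtDNA covariate, the sign turned for COX7A2L in MV4-11 (−0.039), COX8A in Molm-14 (−0.085), NDUFA11 in MV4-11 (0.056), NDUFA4L2 in MV4-11 (0.20) and NDUFC2 in Molm-14 (−0.081). With the mtDNA share as a covariate, the sign turned for NDUFS3 in MV4-11 (0.041), NDUFS3 in SKNO-1 (−0.0081), SDHA in Molm-14 (−0.026), SDHB in MV4-11 (−0.11) and SDHC in Molm-14 (0.041). With that covariate, the sign turned for SDHC in MV4-11 (−0.059), UQCRB in Molm-14 (−0.16), UQCRB in SKNO-1 (−0.0026), UQCRC2 in MV4-11 (−0.11) and UQCRFS1 in MV4-11 (−0.21). In the libraries under 10% mtDNA reads, the sign turned for ATP5F1A in MV4-11 (−0.23), ATP5F1B in MV4-11 (−0.21), ATP5F1D in MV4-11 (0.037), ATP5IF1 in Molm-14 (−0.12) and COX6B1 in MV4-11 (0.12). Without the 4 libraries rich in mtDNA reads, the sign turned for COX7A2L in MV4-11 (−0.053), COX8A in Molm-14 (−0.017), NDUFA11 in MV4-11 (0.29), NDUFA4L2 in MV4-11 (0.23) and NDUFC2 in Molm-14 (−0.058). In the same 14 libraries, the sign turned for NDUFS3 in MV4-11 (0.051), SDHA in Molm-14 (−0.037), SDHB in MV4-11 (−0.20), SDHC in Molm-14 (0.063) and SDHC in MV4-11 (−0.082). In the libraries under 10% mtDNA reads, the sign turned for UQCRB in Molm-14 (−0.15), UQCRC2 in MV4-11 (−0.18) and UQCRFS1 in MV4-11 (−0.20). With median-ratio scaling, the sign turned for ATP5F1C in SKNO-1 (0.011), ATP5IF1 in SKNO-1 (0.047), ATP5MC3 in MV4-11 (0.027), COX6A1 in Molm-14 (0.021) and NDUFA4 in MV4-11 (0.010). With median-ratio scaling, the sign also turned for NDUFA4L2 in MV4-11 (0.0068). With nuclear read totals, the sign turned for ATP5IF1 in SKNO-1 (0.019) and COX6A1 in Molm-14 (0.019).

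With 1 culture left out at a time the ranges were −0.044 to 0.33 for ATP5F1B in MV4-11, −0.12 to 0.18 for ATP5IF1 in Molm-14, −0.097 to 0.050 for ATP5IF1 in SKNO-1, −0.075 to 0.13 for ATP5MC2 in MV4-11 and −0.093 to 0.12 for ATP5MC3 in MV4-11. Others were −0.30 to 0.16 for COX6A1 in Molm-14, −0.016 to 0.068 for COX7A2L in MV4-11, −0.017 to 0.15 for COX8A in Molm-14, −0.10 to 0.083 for NDUFA4 in MV4-11 and −0.22 to 0.15 for NDUFA4L2 in MV4-11. Further ranges were −0.29 to 0.043 for NDUFA4L2 in Molm-14, −0.019 to 0.27 for NDUFC2 in MV4-11, −0.058 to 0.15 for NDUFC2 in Molm-14 and −0.32 to 0.25 for NDUFS1 in MV4-11. They were −0.064 to 0.056 for NDUFS3 in SKNO-1, −0.12 to 0.019 for NDUFV1 in MV4-11, −0.037 to 0.088 for SDHA in Molm-14, −0.017 to 0.23 for SDHB in MV4-11 and −0.30 to 0.063 for SDHC in Molm-14. Others were −0.15 to 0.45 for UQCRB in Molm-14, −0.042 to 0.13 for UQCRB in SKNO-1, −0.15 to 0.068 for UQCRC1 in MV4-11, −0.011 to 0.26 for UQCRC2 in MV4-11 and −0.055 to 0.20 for UQCRHL in MV4-11. Further ranges were −0.23 to −0.16 for the median of complex I in Molm-14, −0.31 to −0.20 for the median of complex I in SKNO-1, −0.36 to −0.23 for the median of complex III in Molm-14, −0.61 to −0.27 for the median of complex IV in MV4-11 and −0.40 to −0.26 for the median of complex IV in SKNO-1. They were −0.17 to 0.13 for the median of complex V in Molm-14, 0 to 2 members higher in Molm-14, 0 to 1 members higher in SKNO-1, 4 to 41 members lower in MV4-11 and 10 to 13 members lower in SKNO-1. Others were 5 to 25 members higher in MV4-11 than in Molm-14 with DMSO, 0 to 6 members higher in SKNO-1 than in MV4-11 with DMSO, 9 to 22 members lower in MV4-11 than in Molm-14 with DMSO, 20 to 50 members lower in SKNO-1 than in MV4-11 with DMSO and 1 to 12 members with a more negative Molm-14 response than MV4-11 response. Further ranges were 0 to 1 members with a more negative SKNO-1 response than the other lines, 1 to 25 members with a more positive Molm-14 response than MV4-11 response and 0 to 1 members with a more positive SKNO-1 response than the other lines.

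Of the medians of complexes that stayed within the spread of the replicates, the ranges with 1 culture left out passed 1.5 times the median for complex II (−0.17 to −0.05) and complex IV (−0.23 to −0.08) in Molm-14, and for complex I (−0.42 to −0.21), complex II (−0.13 to −0.08), complex III (−0.41 to −0.19) and complex V (−0.39 to −0.17) in MV4-11.

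Replicate numbers are shared across groups in the labels, and same-numbered samples did not all deviate together: the correlations were −0.05, −0.04 and 0.00 in Molm-14, 0.39, 0.59 and −0.40 in MV4-11 and 0.13, 0.01 and 0.04 in SKNO-1. In no line did every sample correlate best with its own number. With the replicate block 21 members fell and 3 rose in Molm-14, 16 fell and 0 rose in MV4-11, and 25 fell and 2 rose in SKNO-1. With the block the more negative SKNO-1 responses numbered 0 and the more positive 1, and the more positive Molm-14 responses against MV4-11 numbered 3. With the replicate block the call of NDUFB3 in MV4-11 was lost (−0.31, adjusted p = 0.0659), so that it no longer passed in all 3 lines, and so was that of PDSS1 in MV4-11 (−0.35, adjusted p = 0.0638).

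Depth limits NDUFV2 and NDUFA7, whose treated Molm-14 cultures hold 31 to 40 and 22 to 30 reads. All alternatives planned were run.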
